A study of Mus musculus with 17 samples.

Results

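Lens fibers lose their nuclei, mitochondria and endoplasmic reticulum late in differentiation, and the genes described here serve that removal or the wider autophagy pathway. The 10 genes were chosen by name, with earlier results of these data known: Dnase2b, Bnip3l, Bnip3, Pla2g16, Ulk1, Fyco1, Becn1, Pik3c3, Atg5 and Mtor. They are 10 of 21938 protein-coding genes of the GENCODE vM21 annotation. For each gene, islands of the histone variant H3.3 were taken over the gene body and 5 kb on each side, called the window below. Each of the 10 had an island in some library.

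Lenses were microdissected into epithelium and fibers, and H3.3 was immunoprecipitated from 2 biological replicates of each compartment. The genotype of every sample is given as CD1, an outbred strain, with no altered allele and no treatment, and each sample pooled 150 lenses. The titles give day 1 after birth, whereas the protocol and the methods name a slightly earlier newborn stage, and the methods another number of lenses. An island is a stretch of the genome in which the authors' caller, SICER2, found more ChIP reads than background, and the deposited lists give its position and its count of reads.

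Autophagy encloses cytoplasm or organelles in a double membrane and delivers them to lysosomes. The kinase Mtor holds the pathway back when nutrients are plentiful, Ulk1 starts it, the lipid kinase Pik3c3 with its partner Becn1 marks the membrane, and Atg5 helps to attach LC3 to it. Bnip3 and Bnip3l sit on the outer mitochondrial membrane and recruit autophagosomes to mitochondria, and Fyco1 links autophagosomes to motors on microtubules. In the lens, Dnase2b degrades nuclear DNA and the phospholipase Pla2g16 acts on organelle membranes. H3.3 enters chromatin outside of DNA replication and is known to accumulate at transcribed genes and their promoters, so that its islands are not a measure of RNA or protein.

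The lists held 10389 and 14434 islands over 45.4 and 48.9 Mb in epithelium replicates 1 and 2, and 27059 and 35940 islands over 178 and 188 Mb in fiber replicates 1 and 2. The sequencing depth is unknown, so that an absent island means only that none was called, and no interval was computed. The larger lists of the fiber libraries touch every comparison below, and depth and compartment cannot be told apart. The 4 libraries allow 6 splits into equal groups, and the smallest two-sided p that exact permutation can give is 0.33, so that no single gene could pass the usual threshold. A gene is therefore called higher in fibers when both fiber values lie above both epithelium values. Counts of such genes are set beside the share of all genes where that share was computed. Among 14 lens fiber markers, the median cover of the window was 98.5% in each fiber library, and 19.4% and 41.3% in epithelium replicates 1 and 2. The 8 epithelium markers had medians of 9.97% and 18.0% in epithelium and 71.2% and 76.8% in fibers, and so did not set the epithelium libraries apart. Islands were called at 1 to 2 of 4 vascular, 2 of 4 retinal, 2 to 3 of 4 macrophage and 0 to 1 of 4 mesenchymal markers. Their summed cover per library was 4.32% to 20.9%, 12.99% to 60.4%, 78.3% to 163% and 0% to 3.82%, in that order, and Kdr, Tek, Crx, Ptprc, Col1a1, Col3a1, Twist1 and the fiber marker Lgsn had no called island in any library. The part of other cells in the results was not tested.

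Of the 10 genes, 8 had a higher covered share of the window in both fiber libraries than in both epithelium libraries. Among 14147 protein-coding genes with an island in any library this share was 69.8%, so that the count of members was near the background. None of the 10 genes was higher in epithelium, against 1.04% of all genes. The median difference between fibers and epithelium was 19.9 percentage points over the 10 genes, 16.0 over all genes with an island and 4.72 over all protein-coding genes. The median of the 10 genes and that of genes with an island fell when islands were filtered by number or density. With the same number of islands from each library, taken by reads per kb, they were 1.51 and 2.46. Taken by reads, they were 8.89 and 10.05. With islands of at least the median reads per kb they were 4.59 and 8.86. Each background there held only genes that kept an island. Dnase2b and Fyco1 kept none in these settings, nor did Pik3c3 with equal numbers, and they counted as 0 among the 10 genes. The order of the 2 medians can therefore not be read in these settings. The members differed widely among themselves, from 1.52 percentage points at Pik3c3 to 93.4 at Pla2g16. Pla2g16, Bnip3l and Mtor formed the upper end, Bnip3, Ulk1 and Becn1 the middle, and Dnase2b, Atg5, Fyco1 and Pik3c3 the lower end.

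**Figure D1:**
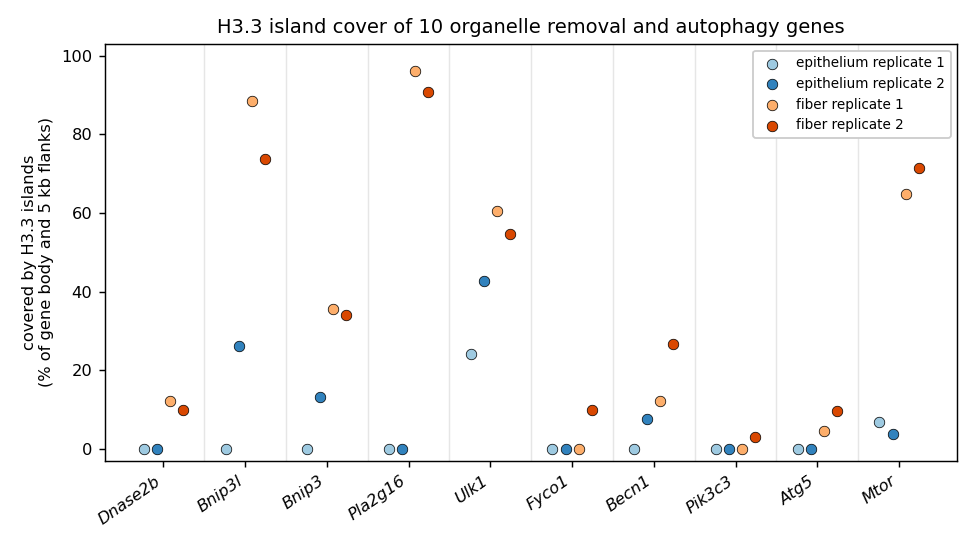
Share of the gene body and 5 kb flanks covered by H3.3 islands (y axis, percent) for each of the 10 genes (x axis), with 1 point per library and no averaging. Pla2g16 lies above 90% in both fiber libraries and at 0 in both epithelium libraries, whereas Pik3c3 and Fyco1 have an island in fiber replicate 2 only.

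Dnase2b, the acid nuclease that degrades fiber cell DNA, (ENSMUSG00000028185.12) occupies bases 146580985 to 146615596 of chromosome 3 in GRCm38, minus strand. It had no called island in either epithelium library. In fiber replicate 1, a single island from 146595001 to 146600400 with 131 reads covered 12.1% of the window. In fiber replicate 2, a single island from 146595801 to 146600200 with 96 reads covered 9.86%. The groups did not overlap, but these were sparse islands, with 24.3 and 21.8 reads per kb, and only 20.4% and 6.56% of the islands in their libraries were less dense. The annotation gives Dnase2b a pair of starts 18984 bp apart. The outer start had no island in any library, and the inner start, at 146596612, lay inside the island of both fiber libraries. Uox, the gene for urate oxidase, spans the whole of Dnase2b on the opposite strand and has a start 465 bp from this inner start, also inside both islands. H3.3 at Dnase2b and at Uox therefore cannot be told apart, and the cover of the gene body lay in the middle one of its 3 equal parts.

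The 2 stretches of Dnase2b are shown to place its fiber island, with every CpG in capitals. Each is 200 bases of the minus strand, ends 50 bases before the start and is written 5′ to 3′. The first is the RefSeq promoter at the outer start, without an island, at chr3:146615649-146615848 of GRCm38.p6. The second was read from the same assembly at the inner start, at chr3:146596663-146596862, and lies inside the island of both fiber libraries.
Dnase2b outer start: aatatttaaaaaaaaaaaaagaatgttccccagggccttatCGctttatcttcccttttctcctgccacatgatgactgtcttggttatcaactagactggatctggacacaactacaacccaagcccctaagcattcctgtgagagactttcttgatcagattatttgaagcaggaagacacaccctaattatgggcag
Dnase2b inner start: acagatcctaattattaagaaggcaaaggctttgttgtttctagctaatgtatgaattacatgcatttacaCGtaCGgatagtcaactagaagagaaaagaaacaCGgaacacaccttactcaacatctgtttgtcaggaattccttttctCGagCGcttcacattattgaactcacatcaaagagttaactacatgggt
The outer stretch holds 1 CpG and the inner stretch 5.

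Dnase2a, the nearest relative of Dnase2b and a nuclease of lysosomes in most tissues, was not separated in the same way. Its window was covered by 0% and 38.6% in epithelium replicates 1 and 2, and by 29.6% and 21.4% in fiber replicates 1 and 2, so that the groups overlapped.

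Pla2g16 (ENSMUSG00000060675.13), now also named Plaat3, lies on chromosome 19 from 7557459 to 7588545 on the plus strand, with no further gene in its window. Neither epithelium library had a called island there. Islands covered 96.1% of the window in fiber replicate 1, as 3 islands with 1327 reads, and 90.8% in fiber replicate 2, as 4 islands with 1369 reads. The mean in fibers was 93.4% ± 3.79 (SD, n = 2), a difference far wider than the spread between replicates. Only gaps between neighbouring islands were left uncovered. Of the bases covered in either fiber library, 87.8% were covered in both. The longest islands measured 19.4 and 18.4 kb, longer than 97.1% and 98.1% of the islands in their libraries, and with 31.1 reads per kb each they were denser than 78.2% and 75.6% of them. When islands at most 1000 bp apart were joined, an alternative added after the data were seen, the run over Pla2g16 measured 58.4 kb in fiber replicate 1 and 36.2 kb in fiber replicate 2. In the difference between compartments, Pla2g16 stood at percentile 99.96 of all protein-coding genes.

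The promoters of Pla2g16 and Bnip3 are shown because both were covered in full by islands in both fiber libraries and differ in CpG content. Each is 200 bases of RefSeq sequence on GRCm38.p6 that ends 50 bases before the start, with CpGs in capitals. The former is at chr19:7557209-7557408 on the plus strand and the latter at chr7:138909557-138909756 on the minus strand.
Pla2g16: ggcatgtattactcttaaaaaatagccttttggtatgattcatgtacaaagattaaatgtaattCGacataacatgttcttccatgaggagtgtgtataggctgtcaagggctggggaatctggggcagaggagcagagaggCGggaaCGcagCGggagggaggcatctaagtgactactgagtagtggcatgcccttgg
Bnip3: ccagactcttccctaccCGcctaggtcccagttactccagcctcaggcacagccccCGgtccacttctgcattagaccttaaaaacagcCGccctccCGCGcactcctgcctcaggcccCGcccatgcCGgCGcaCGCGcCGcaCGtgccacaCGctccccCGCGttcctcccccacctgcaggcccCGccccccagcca
The stretch of Pla2g16 holds 4 CpGs and that of Bnip3 16. Pla2g16 has a pair of RefSeq starts, and the stretch before the other, at chr19:7557235-7557434, is not shown and holds 6.

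Hrasls5, the neighbouring relative of Pla2g16 in the same phospholipase family, had little cover. Neither epithelium library had an island there, and islands covered 2.86% and 4.47% of its window in fiber replicates 1 and 2. Hrasls5 lies on chromosome 19 as well, and its start had no island in any library.

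Bnip3l and Bnip3, the receptors for the removal of mitochondria, were both higher in fibers but were covered in different ways. Bnip3l (ENSMUSG00000022051.15) lies on chromosome 14 from 66985239 to 67008877 on the minus strand. Islands covered 88.5% and 73.7% of its window in fiber replicates 1 and 2. Epithelium replicate 1 had no called island and epithelium replicate 2 had 3, which covered 26.2%. The epithelium mean of 13.1% ± 18.5 (SD, n = 2) therefore rests on 1 library, and both fiber values lay above both epithelium values. In fibers the islands ran, with gaps, from upstream of the start past the end of the gene, and covered 97.5% of its middle part in each replicate. The 3 islands of epithelium replicate 2 lay inside the gene or at its end. They left its outermost start bare, although another annotated start lay inside an island. Of the bases they covered, 88.6% and 81.8% were also covered in fiber replicates 1 and 2.

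Bnip3 (ENSMUSG00000078566.8), whose transcription is known to respond to low oxygen, lies on chromosome 7 from 138890836 to 138909519 on the minus strand. Its window was covered by 35.6% in fiber replicate 1 and 34.04% in fiber replicate 2, by 13.2% in epithelium replicate 2 and not at all in epithelium replicate 1. Relative to all protein-coding genes of the same library, Bnip3 stood at percentiles 75.1 and 74.7 in fibers and at 34.8 and 80.5 in epithelium, which overlapped. Genes of equal cover share a percentile, and 34.8 is that of all genes without an island in epithelium replicate 1. At Bnip3 the cover was highest at the 5′ end of the gene. The first part of the body was covered by 87.2% and 91.8% in fiber replicates 1 and 2, the middle part by 49.6% in replicate 1 and not at all in replicate 2, and the last part had no called island in any library. Fiber replicate 2 had a further island beyond the 3′ end. The single island of epithelium replicate 2, 3800 bp long with 93 reads, spanned the start and lay wholly inside an island of fiber replicate 2, which ran further into the gene. The antisense gene Gm45507 and the pseudogene Gm18258 lie across the body of Bnip3 and had no island at their starts.

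**Figure D2:**
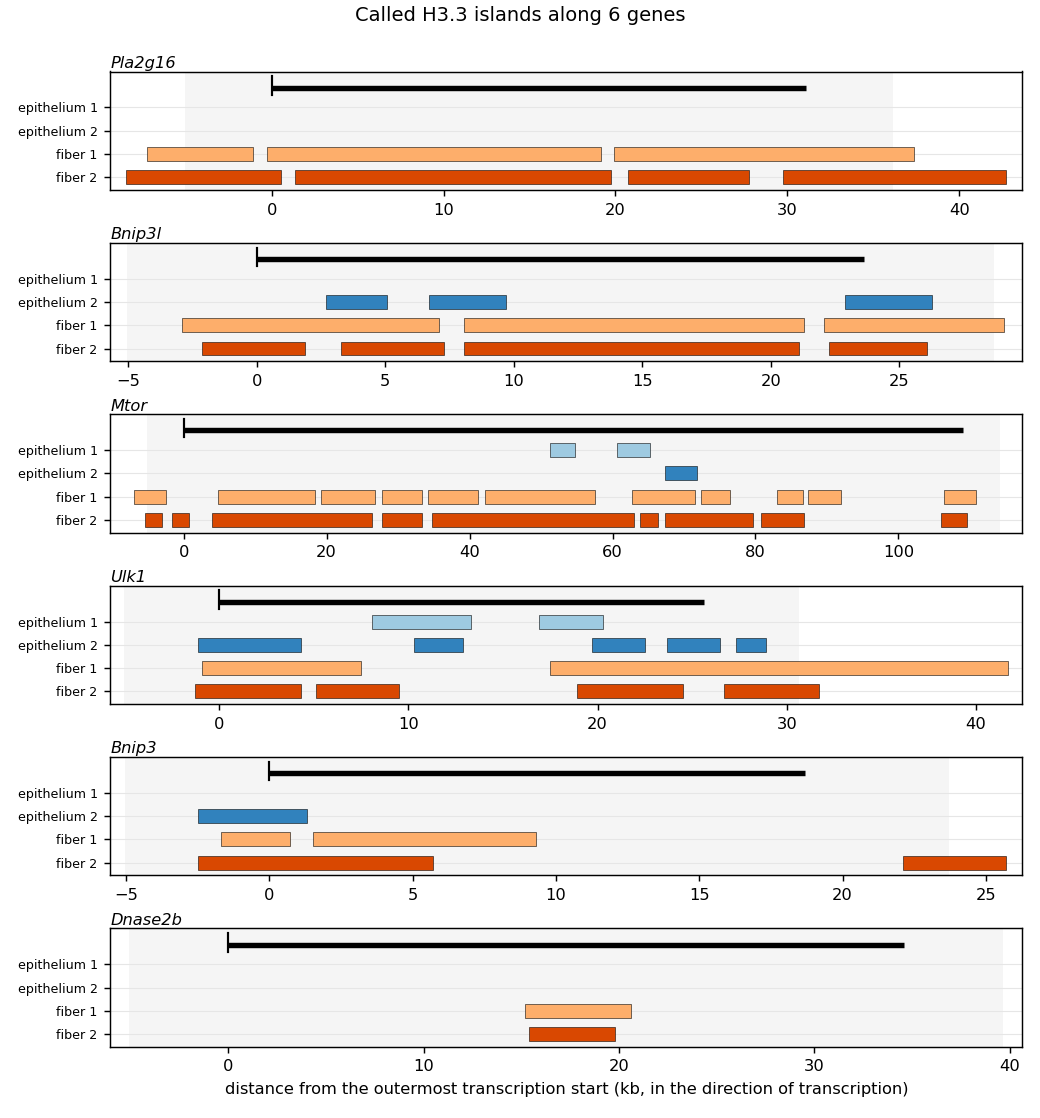
Called H3.3 islands (coloured bars, 1 row per library) along 6 of the genes, against the distance from the outermost transcription start in kb. The black line is the gene body, the tick its start and the grey area the gene body with 5 kb on each side. Islands fill Pla2g16, Bnip3l and much of Mtor in fibers, lie mostly at the 5′ end of Bnip3, leave the middle of Ulk1 bare in fiber replicate 1 and form a single block away from the outer start of Dnase2b.

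Mtor (ENSMUSG00000028991.15), the kinase that restrains autophagy, is the longest of the genes, with 109073 bp on chromosome 4 from 148448611 to 148557683 on the plus strand. Its window was covered by 64.8% in fiber replicate 1, as 11 islands with 2340 reads, and by 71.4% in fiber replicate 2, as 9 islands with 2510 reads. In epithelium replicates 1 and 2 the cover was 6.89% and 3.70%, from 2 islands and 1 island. All 4 values fell into groups that did not overlap, with a mean of 68.1% ± 4.63 in fibers and 5.29% ± 2.26 in epithelium (SD, n = 2). The islands of the epithelium replicates had no base in common, although 73.2% and 90.2% of the bases covered in epithelium replicate 1, and 95.5% and 100% of those in epithelium replicate 2, were also covered in fiber replicates 1 and 2. The start lay inside an island in fiber replicate 2 only. The cover in fibers was carried by the first and middle parts of the body, at 81.6% and 87.9% on average, and was 42.0% in the last part. Angptl7, a gene on the opposite strand inside Mtor, had its start in an island in both fiber libraries and in epithelium replicate 1. Islands in that stretch cannot be assigned to one of the genes.

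Ulk1 (ENSMUSG00000029512.11), the kinase that starts autophagy, lies on chromosome 5 from 110784488 to 110810097 on the minus strand and had the most cover of the 10 genes in epithelium. Its window was covered by 24.2% and 42.7% in epithelium replicates 1 and 2, and by 60.4% and 54.8% in fiber replicates 1 and 2. The groups did not overlap, with means of 33.4% ± 13.1 and 57.6% ± 3.97 (SD, n = 2). The order was not the same along the gene. In the first part of the body the cover was 5.15% and 50.3% in epithelium against 87.8% and 90.6% in fibers. In the middle part it was 57.8% and 30.5% in epithelium against 0% and 11.2% in fibers, so that the epithelium values were the higher ones there. The longest island of fiber replicate 1, 24.2 kb, ran out of the 3′ end of Ulk1 over the start of the neighbouring gene Pus1. That of fiber replicate 2 measured 5.6 kb, close to the 5.2 and 5.4 kb in epithelium. Relative to all protein-coding genes of the same library, Ulk1 stood higher in epithelium, at percentiles 88.3 and 94.8, than in fibers, at 86.3 and 85.4.

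The remaining genes of the core machinery had less H3.3 cover in fibers than Mtor and Ulk1. Becn1 (ENSMUSG00000035086.13), on chromosome 11 from 101285952 to 101302286 on the minus strand, had no called island in epithelium replicate 1 and 7.59% of its window covered in epithelium replicate 2. In fiber replicates 1 and 2 the cover was 12.2% and 26.6%, above the medians of all protein-coding genes, 4.83% and 8.23%. By percentile among these genes, Becn1 stood at 57.7 and 69.5 in fiber replicates 1 and 2, and at 34.8 and 74.5 in epithelium replicates 1 and 2, which overlapped. The 34.8 is again the percentile shared by all genes without an island in that library. In both fiber libraries an island with 82 and 77 reads lay over the start and the first part of the gene. The island of epithelium replicate 2 lay beyond the 3′ end of Becn1, within Cntd1, which overlaps it on the opposite strand, and fiber replicate 2 had an island there too, so that the body of Becn1 had no island in epithelium and 18.9% and 18.0% cover in fibers.

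Atg5 (ENSMUSG00000038160.7), on chromosome 10 from 44268358 to 44364291 on the plus strand, had no called island in epithelium and 4.53% and 9.63% of its window covered in fiber replicates 1 and 2. In each fiber library 1 island lay over the start and another began at the same position, 44303001, inside the gene. The island at the start ended at 44270200 in both replicates, while it began at 44267001 in replicate 1 and further upstream, at 44263801, in replicate 2.

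For Fyco1 and Pik3c3 the groups overlapped at 0. Fyco1 (ENSMUSG00000025241.16), on chromosome 9 from 123789500 to 123851899 on the minus strand, had 2 islands in fiber replicate 2, which covered 9.94% of its window, and none in the other libraries. One of them, 4800 bp long with 118 reads, lay over the start, and the other, at the 3′ end, over the start of the overlapping gene AC165425.1. Pik3c3 (ENSMUSG00000033628.15), on chromosome 18 from 30272747 to 30348126 on the plus strand, had 1 island of 2600 bp with 73 reads inside the gene in fiber replicate 2 and none elsewhere. These 2 genes were the only members without an island in fiber replicate 1, and leaving that library out brought the count of members higher in fibers from 8 to 10.

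**Figure D3:**
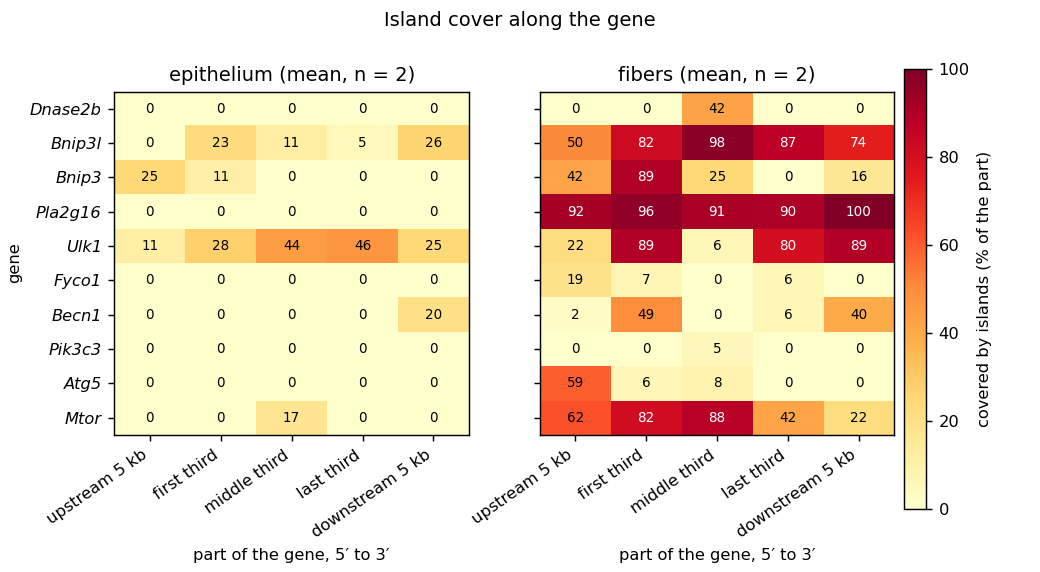
Mean cover by islands (percent, n = 2 libraries) of the 5 kb upstream, the first, middle and last of 3 equal parts of the gene body and the 5 kb downstream, in epithelium (left) and fibers (right) for the 10 genes. Cover in fibers runs through all parts of Pla2g16 and Bnip3l, is highest in the first part of the Bnip3 body, and is lower than in epithelium in the middle part of Ulk1.

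Starts, island lengths and densities were then compared over the 10 genes. The outermost start lay inside an island in both fiber libraries in 6 of them (Bnip3l, Bnip3, Pla2g16, Ulk1, Becn1 and Atg5), against 31.4% of all protein-coding genes and 48.7% of those with an island in any library. This count was 1 and 2 with equal numbers of islands, by reads per kb and by reads, and 2 with islands of at least the median reads per kb. In epithelium none of the 10 had an island over this start in both libraries, against 6.83% of all genes and 10.6% of those with an island, and Bnip3 and Ulk1 had one in replicate 2, so that the count was 2 without replicate 1. An island in both fiber libraries and in no epithelium library was found in the windows of 3 of the 10 genes (Dnase2b, Pla2g16 and Atg5) and of 15.2% of all genes, or 23.6% of those with an island. The longest island was longer in both fiber libraries for 8 of the 10 genes, against 68.5% of genes with an island. Over the gene body without flanks, 8 genes were higher in fibers, against 59.5%. None of these counts was tested, and with 10 genes each lies within a few genes of its background.

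Reads per kb of island did not move one way. Values in all 4 libraries existed for Ulk1 and Mtor only. At Mtor the density was 23.5 and 27.5 in epithelium and 29.5 and 29.4 in fibers, without overlap. At Ulk1 it was 29.7 and 27.4 in epithelium and 28.2 and 28.9 in fibers, which overlapped. Without epithelium replicate 1, which had no island at Bnip3l and Bnip3, 4 genes were denser in fibers (Bnip3l, Bnip3, Ulk1 and Mtor) instead of 1. Becn1 was the only other member with values there. No share of all genes is given for that setting, so that the rise cannot be read as one of the members. Becn1 went the other way, with 33.0 reads per kb in epithelium replicate 2 and 25.6 and 25.3 in fiber replicates 1 and 2. Its island in epithelium replicate 2 lay beyond its 3′ end within Cntd1, however, and shared no base with the island of fiber replicate 1. Among 5246 genes with an island in all 4 libraries, 30.8% had more reads per kb in both fiber libraries and 16.3% in both epithelium libraries. Across the other members with an island in both fiber libraries, the fiber means ran from 23.0 ± 1.73 reads per kb at Dnase2b to 31.5 ± 1.95 at Bnip3l (SD, n = 2), around the medians of all islands in the fiber libraries, 27.4 and 27.5.

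Which genes were called depended on the number of islands per library. When every library was reduced to its 10389 islands with the most reads per kb, Bnip3l, Mtor and Pla2g16 were still higher in fibers without overlap. Of the 11410 genes that kept an island there, 30.02% were. With the 10389 islands of the most reads, Bnip3l, Bnip3, Mtor and Pla2g16 were, against 45.2% of the 10411 genes that kept an island. Dnase2b, Fyco1 and Pik3c3 kept no island in either setting and so have no counterpart in these shares. The calls of Dnase2b, Ulk1, Becn1 and Atg5 were lost in both, that of Bnip3 in the former, and with the islands of the most reads per kb Ulk1 was higher in both epithelium libraries.

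**Figure D4:**
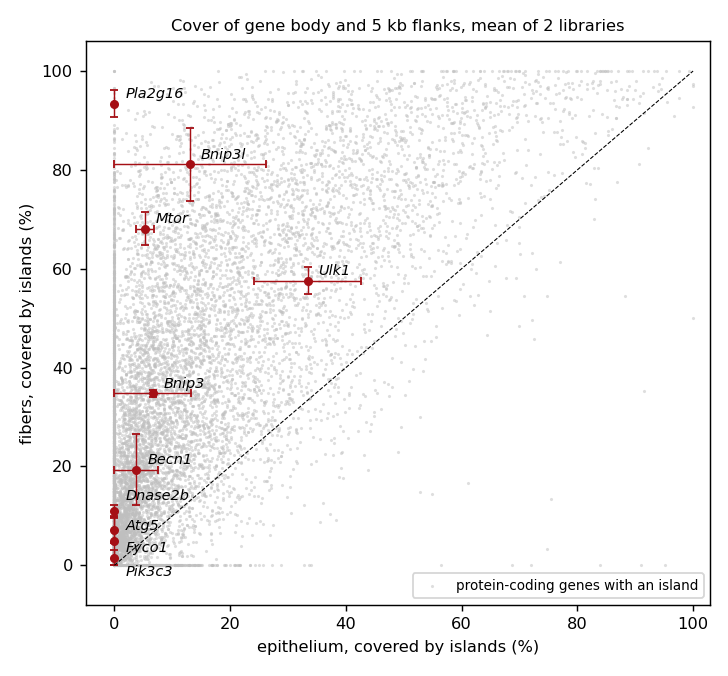
Mean cover of the gene body and 5 kb flanks (percent) in epithelium (x axis) and fibers (y axis) for all protein-coding genes with an island (grey) and the 10 genes (red, bars from the lower to the higher of 2 libraries). The dashed line marks equal cover. All 10 genes lie above it, as do most grey points, and Pla2g16 lies at the upper left edge.

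Sequence at the starts was compared for the 7 members that have a promoter in the RefSeq table, with 300 bases per start from 250 bases before it to 50 after it. No sequence was used for Bnip3l, Becn1 and Pik3c3. A promoter was counted as CpG-rich with at least 55% G and C and an observed over expected CpG ratio of at least 0.6. Bnip3, Ulk1, Fyco1, Atg5 and Mtor were CpG-rich, with ratios between 0.802 and 0.935, whereas Pla2g16 had 0.461 and 0.516 at its pair of starts and Dnase2b 0.266. The inner start of Dnase2b, which is not in the table, had 0.513. Of 9950 CpG-rich promoters of the table, 55.4% had an island in both fiber libraries and 12.3% in both epithelium libraries, and of 22901 other promoters 15.4% and 3.69% did. Pla2g16 and the inner start of Dnase2b thus carried islands in both fiber libraries without being CpG-rich, while the CpG-rich promoters of Fyco1 and Mtor had one in fiber replicate 2 only.

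Short motifs were searched on both strands of these promoters. The E-box CACGTG, the core of the site bound by the lysosomal regulator Tfeb and a form of the site bound by Hif1a, was found at Bnip3 and Atg5 and in 7.15% of all promoters of the table. The paired heat shock units GAANNTTC and TTCNNGAA were found in 7.86% and 8.52% of all promoters, the former at Dnase2b and Fyco1 and the latter at Fyco1. The Maf half-site TGCTGAC (4.67% of all) and the box TATAAA (13.6% of all) were found at none of the members' promoters. The matches of Bnip3, Atg5 and Dnase2b are shown with the motif in capitals, 5′ to 3′ along the gene, at chr7:138909597-138909626 (minus strand), chr10:44268313-44268342 (plus strand) and chr3:146615810-146615839 (minus strand) of GRCm38.p6.
Bnip3 E-box: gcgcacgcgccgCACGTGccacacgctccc
Atg5 E-box: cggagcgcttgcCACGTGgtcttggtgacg
Dnase2b heat shock unit: aaaaaaaaaaaGAATGTTCcccagggcctt
The windows of Bnip3 and Atg5 lay inside an island in both fiber libraries, and that of Dnase2b had none. A match of letters is not a bound site.

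A wider list of the same pathways, without the 10 genes, had 81 genes in the annotation, of which 72 had an island in any library. Of these 72, 56 were higher in fibers without overlap and 0 in epithelium, next to 69.8% and 1.04% of all genes. The median difference over the 81 genes was 15.1 percentage points. The 5 with the largest differences were Bcl2l13, a mitochondrial receptor for autophagy, with 77.8 percentage points, Lamp1, a protein of the lysosomal membrane, with 69.3, Ctsd, a lysosomal protease, with 68.9, Wipi2, which binds the lipid made by Pik3c3, with 64.3, and Hsf4, a heat shock factor required in lens fibers, with 60.5. Bcl2l13 was covered by 11.7% and 14.47% in epithelium replicates 1 and 2 and by 92.8% and 88.9% in fiber replicates 1 and 2. Lamp1 was covered by 20.4% and 19.8% in epithelium and by 94.9% and 84.0% in fibers. In these 2 genes the groups lay far apart. For Hsf4, also on the list of fiber markers, the values were 18.7% and 55.1% in epithelium and 94.7% and 100% in fibers. The difference of Pla2g16 was larger than that of any of the 81 genes.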

How the data were processed

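H3.3 ChIP-seq of newborn mouse lens was analysed in 4 libraries, grouped by compartment from their titles. Per the methods, 75-nt single-end reads were mapped by the authors to mm10 (GRCm38) with BWA, and islands were called with SICER2. The settings named with the deposited lists were windows of 200 bp, gaps up to 600 bp and an FDR of 0.01. The deposited counts are ChIP reads per island, without normalization. Duplicate removal, read filters and the use of the pooled input are not given in the sources used here. Positions are given from 1.

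Gene bodies came from GENCODE vM21 on GRCm38, and no coordinates were converted. Cover was the share of gene body and 5 kb on each side inside islands. Density was the reads of all islands touching that window divided by their summed length. Means and SD are over 2 libraries. The code (Python 3.11.15, numpy 2.4.6) was tested on simulated islands. The genes named were the 10 members, their neighbours, the nearest relatives of Dnase2b and Pla2g16, and the 5 largest differences of the wider list. The members and lists were chosen with earlier results of these data known. The alternatives left out each library, compared within replicate numbers, equalized or filtered islands, changed the flank, and used percentiles, shared-out reads or any annotated start. Bisulfite libraries and input were not analysed here.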

Additional observations from a re-analysis of the deposited data

How the results depend on the processing

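Of the counts and medians compared, 60 values stayed within 1.5 times the reported count or within the spread between libraries and 25 did not. With equal numbers of islands, by most reads per kb and by most reads in that order, members higher in fibers numbered 3 and 4 by cover of the window, 3 and 4 by cover of the body and 4 and 5 by longest island. Members with the start in an island in both fiber libraries numbered 1 and 2, wider-list genes 23 and 27, and the median difference was 1.51 and 8.89 percentage points. The difference reversed at Ulk1 (-6.18) in the former and at Becn1 (-3.80) in the latter. With islands of at least the median reads per kb, these values were 5, 3, 5, 2, 37 and 4.59, and no member was denser in fibers (0). Of the 11966 genes that kept an island in that setting, 56.6% were higher in fibers by cover of the window, with a median difference of 8.86. Dnase2b and Fyco1 kept none there but are counted among the 10 genes. With equal numbers of islands, 30.02% (by reads per kb) and 45.2% (by reads) of the genes that kept an island were higher in fibers. How many wider-list genes kept an island in these 3 settings is not given. The fall of their counts can therefore not be read as a result about that list. With percentiles within the library, 5 members and 34 wider-list genes were higher in fibers by cover of the window, and the calls of Bnip3, Ulk1 and Becn1 were lost. No share of all genes is given for percentiles or for settings that left out a library. The same holds for cover of the body, longest islands, starts and densities with equal or filtered islands. Whether those counts moved with the background can therefore not be read. The 10 kb flank, the gene body alone and islands of at least 1000 bp changed no count by more than 1.5 times.

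Leaving out 1 library gave 8 to 10 members by cover of the window, by cover of the body and by longest island, 6 to 8 starts in fibers, 58 to 66 wider-list genes and medians of 13.3 to 26.4, with the highest counts of members without fiber replicate 1. Members denser in fibers numbered 1 to 4 and starts in epithelium 0 to 2, in both cases the higher number without epithelium replicate 1. Counting any annotated start gave 1 in epithelium and 7 in fibers. With the replicate block, comparing fiber and epithelium of the same number, 8 members were higher by cover of the window, cover of the body and longest island, 1 by density, and 58 of the wider list, the median was 19.9, and no call of a member changed. The numbers are not said to mark a shared litter or day, and over 14147 genes the deviations of same-numbered libraries had r = 0.00635. Replicate 1 had the longer median island in both compartments, 3800 against 3000 bp in epithelium and 5200 against 4000 bp in fibers. Whether same-numbered libraries share more than a number was not tested. Without the 6 members across whose body another gene lies, a choice added after seeing the data, the median was 46.1. It then rests on Bnip3l, Pla2g16, Ulk1 and Pik3c3 only, which ran from 1.52 to 93.4, and the same median over all genes is not given. Depth is unknown and limits all of these.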
